A study of Drosophila melanogaster with 6 samples.

Results

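Egg activation is the switch by which a mature Drosophila oocyte completes meiosis, changes its nuclear envelope and begins to translate stored maternal mRNA. The 10 genes described here act in that switch and were chosen by name: png, plu and gnu of the PNG kinase complex, the meiotic activator cort, the calcium route genes Trpm, CanB2, CanA-14F and sra, the poly(A) polymerase gene wisp, and fs(1)Ya of the nuclear lamina. All 10 were found among the 13943 genes listed in every library, and all 10 passed the filter on low counts that left 7539 genes.

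The groups came from 2 fly lines whose overexpression constructs sit at the same genomic place. Eggs of the first group (genotype MTD>MEK_F53S) came from mothers that overexpressed MEK F53S, an activating mutant seen in RASopathies, the developmental disorders of the RAS pathway. Eggs of the second group (genotype MTD>MEK) came from mothers that overexpressed wild-type MEK. MEK is the kinase that activates ERK, and Dsor1 is its fly gene. In both groups the driver was MTD-GAL4, which acts in the female germline, the fathers were sterile, eggs were collected over 0 to 30 min, and the labels call them unfertilized. Each library was made from a pool of embryos, with 3 biological replicates per group. Each group is 1 line, so the effect of the transgene and that of line background cannot be told apart. The labels give no allele of the fly's own MEK gene.

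In Drosophila, activation does not need sperm: ovulation and passage through the oviduct bring calcium into the egg, so laid unfertilized eggs are activated. The calcium channel Trpm carries the influx, calcineurin (a phosphatase made of a catalytic A subunit and a calcium-binding B subunit) acts downstream, and the kinase PNG, held inactive in the oocyte, becomes active with its partners PLU and GNU and releases the translation of mRNAs such as those of smg and CycB. Many of these steps act on protein or on poly(A) tails. The counts here measure mRNA only, and carry no value for kinase activity, translation or tail length.

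Libraries held 37224814 to 48485328 estimated counts with MEK F53S and 37342088 to 48756295 with wild-type MEK. Marker lists were used to describe the content of the libraries. Maternal markers, or the absence of others, cannot test the label of unfertilized embryo. Fertilized eggs collected this early would also hold mostly maternal mRNA. The 7 maternal germline and egg markers were all present. They summed to between 9174 and 9816 TPM with MEK F53S and between 10430 and 11208 TPM with wild-type MEK. TPM is transcript abundance scaled for length and depth. Of 7 sperm and testis markers 6 had no count in any library, as had 9 of 12 eggshell and follicle cell markers and 3 of 5 fat body and yolk markers, and none of these 3 lists summed to more than 2.42 TPM. The 18 zygotic genes summed to 15.5 to 70.3 TPM with MEK F53S and to 16.0 to 17.0 TPM with wild-type MEK, with twi, ftz, kni, hkb, odd and ac at 0 throughout. The higher sums lay in MEK F53S replicates 1 and 3, where sisA had 25.3 and 32.8 TPM, eve 1.58 and 13.5 TPM and bnk 1.77 and 2.23 TPM, whereas MEK F53S replicate 2 had the lowest sum, 15.5 TPM, with sisA at 3.76 TPM and eve and bnk at 0. In wild-type MEK eggs sisA had at most 0.084 TPM, eve at most 0.335 TPM and bnk 0. Whether these transcripts bear on the label was not tested, nor was their part in the results below. Dsor1 had 1336 ± 229 CPM with MEK F53S and 1370 ± 182 CPM with wild-type MEK (SD, n = 3 each), and these counts may include the transgenes. CPM here are counts scaled to library size with TMM factors. Mitochondrial genes took 4.14 to 5.24% of counts with MEK F53S and 7.84 to 10.1% with wild-type MEK, and with them left out the calls among the 10 genes numbered 2 higher and 1 lower, as with them.

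One library in each group stood apart. MEK F53S replicate 2 differed from replicates 1 and 3 of its group by a chi-square of 135 and 120 per degree of freedom over genes, against 29.5 between those 2 libraries, which are also the 2 with the higher zygotic sums. Wild-type MEK replicate 1 differed from replicates 2 and 3 with values of 162 and 154, against 46.04 between those 2. Extreme values among the 10 genes were not confined to these 2 libraries. Within their groups, MEK F53S replicate 2 was highest for 5 and lowest for 3, and wild-type MEK replicate 1 highest for 5 and lowest for 4. MEK F53S replicate 1 was highest for 4 and lowest for 3, and wild-type MEK replicate 3 highest for 2 and lowest for 6. MEK F53S replicate 3 was highest for 1 and lowest for 4, and wild-type MEK replicate 2 highest for 3 and lowest for 0. MEK F53S replicate 2 and wild-type MEK replicate 1 stood apart over all genes. Results of the 10 genes that rest on either library are therefore given with and without it.

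The transcripts of png and fs(1)Ya were higher in MEK F53S eggs, by 2.03-fold and 2.36-fold, and that of Trpm was lower, at 0.669 of the level with wild-type MEK. The other 7 did not pass the test. Genes were tested with edgeR's quasi-likelihood test over all 7539 genes, and a gene was called when its Benjamini-Hochberg adjusted p was under 0.05. Of the 10 genes, 2 were called higher and 1 lower, against backgrounds of 12.3% of all genes tested called higher and 12.9% called lower (25.2% in either direction), so the count is near the background. The median log2 fold change of the 10 was 0.17, against 0.05 over all genes tested. The CPM of the 2 groups did not overlap for 5 of the 10 (png, fs(1)Ya, CanB2, Trpm and sra), against 42.3% of all genes tested. Each library is a bulk pool of eggs, so fewer eggs with a transcript and less of it per egg cannot be told apart.

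**Figure D1:**
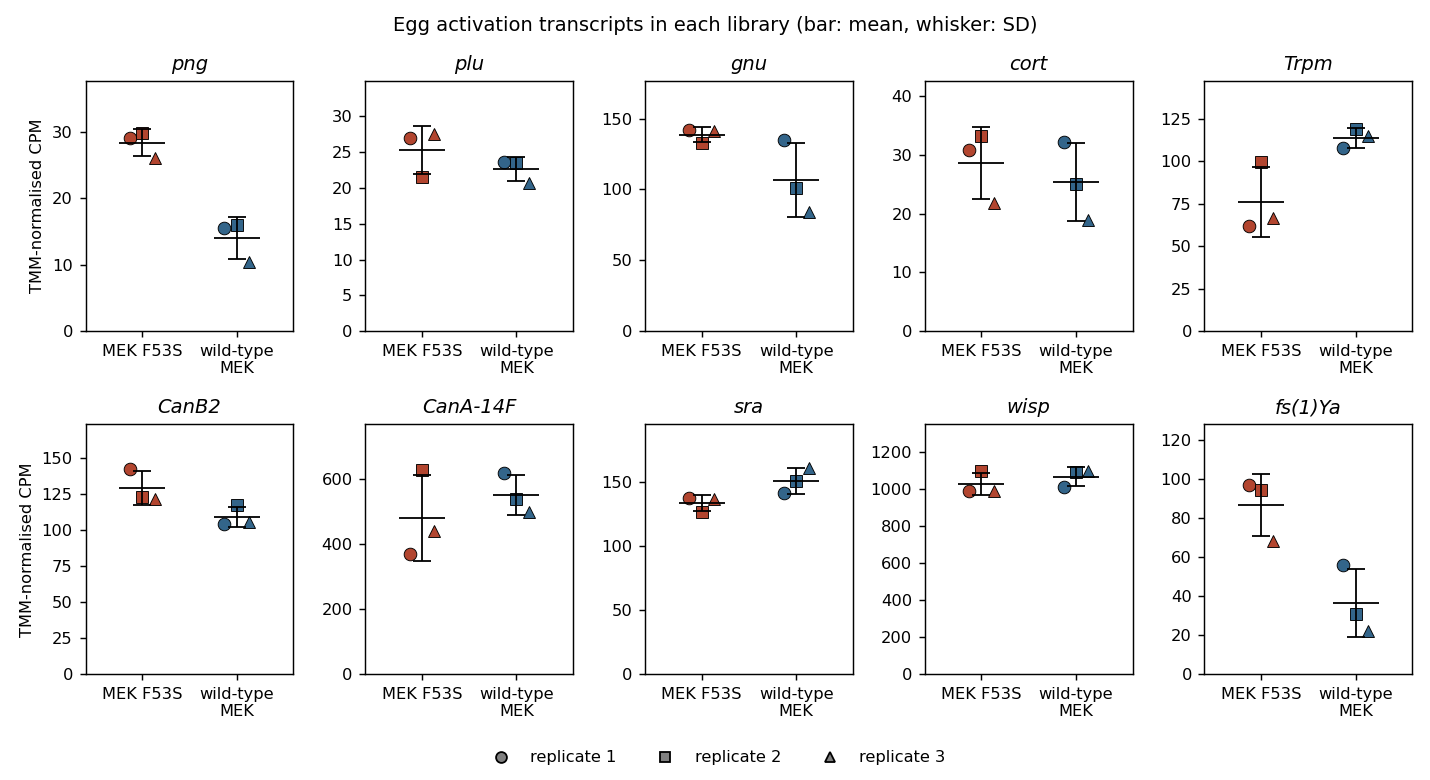
TMM-normalised CPM (y axis, linear from 0) of the 10 egg activation genes in each of 3 MEK F53S libraries (red, left) and 3 wild-type MEK libraries (blue, right); marker shapes are replicate numbers, bars are means and whiskers are SD. For png all MEK F53S libraries lie at 26.1 CPM or above and all wild-type MEK libraries at 16.0 CPM or below, while wisp lies between 992 and 1098 CPM in all 6.

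png (FBgn0000826) encodes the catalytic subunit of the PNG kinase. It is a single-exon gene of 1114 bases on the minus strand of X, 1356488 to 1357601 in dm6. It had 29.1, 29.9 and 26.1 CPM in MEK F53S replicates 1, 2 and 3, and 15.6, 16.0 and 10.4 CPM in wild-type MEK replicates 1, 2 and 3. All MEK F53S libraries were above all wild-type MEK libraries, and the lowest value was that of wild-type MEK replicate 3. The log2 fold change was 1.02 ± 0.20 SE (95% interval 0.58 to 1.46, edgeR adjusted p = 0.00586), on 1183 to 1450 counts per MEK F53S library and 372 to 712 counts per wild-type MEK library. png was called under all 19 alternatives, with log2 fold changes of 0.82 to 1.10 and adjusted p of 5.39e-05 to 0.0334.

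The partners of PNG differed less. plu (FBgn0003114), the ankyrin repeat subunit, lies on 2R, 20262958 to 20263684, on the minus strand. It had 26.9, 21.5 and 27.6 CPM in MEK F53S eggs, against 23.6, 23.5 and 20.6 CPM in wild-type MEK eggs. The groups overlapped, because MEK F53S replicate 2 lay below 2 of the wild-type MEK libraries, and the log2 fold change of 0.17 had a 95% interval of -0.21 to 0.54 (edgeR adjusted p = 0.502).

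gnu (FBgn0001120) encodes the subunit whose binding activates the kinase, and lies on 3L, 14802380 to 14803360, on the minus strand. It had 142, 133 and 141 CPM in MEK F53S eggs and 135, 101 and 84.4 CPM in wild-type MEK eggs. MEK F53S libraries were close together, whereas the wild-type MEK libraries spread widely and in CPM replicate 1 alone reached the level of MEK F53S. In TPM the groups did not overlap, with 341, 353 and 349 in MEK F53S eggs and at most 330 in wild-type MEK eggs. With limma on log2(TPM + 1) gnu was not called (adjusted p = 0.0861). The log2 fold change of 0.38 did not pass the test (95% interval 0.0019 to 0.75, edgeR adjusted p = 0.129). Without wild-type MEK replicate 1 it was 0.55 and was called (edgeR adjusted p = 0.00914), so the result for gnu rests on that library.

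Count ratios within a library do not depend on how libraries are scaled to each other. There were 1.08, 1.39 and 0.947 png counts per plu count in MEK F53S replicates 1 to 3, and 0.66, 0.681 and 0.503 in wild-type MEK replicates 1 to 3. The ratio of png to gnu was 0.205 ± 0.0204 with MEK F53S and 0.133 ± 0.0232 with wild-type MEK (SD, n = 3 each). Neither ratio overlapped between the groups, whereas that of plu to gnu did (0.182 ± 0.0177 with MEK F53S and 0.218 ± 0.0374 with wild-type MEK). Relative to either partner, png counts were therefore higher in each MEK F53S library than in any wild-type MEK library. Counts are not scaled for length. In TPM, png to plu stayed apart between the groups, but png to gnu overlapped. There, png and gnu had 80.0 and 233 TPM in wild-type MEK replicate 2, against 116 and 349 TPM in MEK F53S replicate 3. For each of the 2 count ratios of png the two-sided exact permutation p was 0.1, the smallest that 3 libraries against 3 allow, or 0.2 adjusted over the 6 ratios computed.

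**Figure D2:**
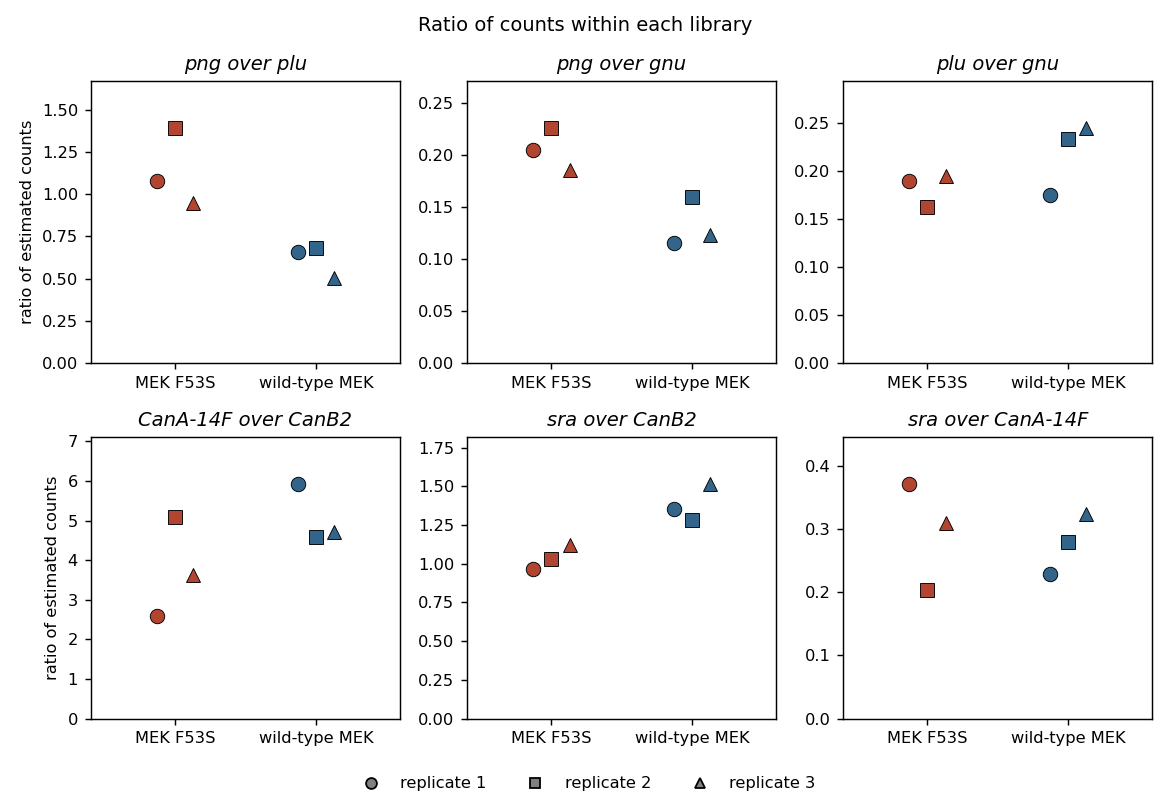
Ratio of estimated counts of 2 genes within each library (y axes, linear from 0, no unit) for the 3 pairs of PNG complex genes and the 3 pairs of CanA-14F, CanB2 and sra, in MEK F53S libraries (red, left) and wild-type MEK libraries (blue, right), with marker shapes for replicate numbers. The groups are apart for png over plu, png over gnu and sra over CanB2, and overlap in the other 3 panels.

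cort (FBgn0000351) encodes a female meiotic member of the Cdc20 family, which activates the anaphase-promoting complex (APC). It lies on 2L, 6674682 to 6676635, on the minus strand. It had 30.9, 33.3 and 21.8 CPM in MEK F53S eggs and 32.2, 25.1 and 18.9 CPM in wild-type MEK eggs. Values within each group varied by more than the group means differed, with a coefficient of variation of 21.1% with MEK F53S and 26.2% with wild-type MEK. The log2 fold change was 0.17 (95% interval -0.34 to 0.69, edgeR adjusted p = 0.624), and it was -0.02 without wild-type MEK replicate 3. cort shares 99 exonic bases, 5.98% of its exons, with cup and CG34310 on the other strand. cup had 259 ± 19.7 CPM with MEK F53S and 227 ± 35.2 CPM with wild-type MEK. No source used here gives the strand setting of the quantification, so reads in those bases are uncertain.

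On the calcium route, Trpm (FBgn0265194) encodes the channel that carries calcium into the egg. It spans 46561 bases of 2R, 15262808 to 15309368, on the minus strand, with 11 annotated transcripts. It had 61.8, 99.8 and 66.8 CPM in MEK F53S eggs, against 108, 119 and 115 CPM in wild-type MEK eggs. All MEK F53S libraries were below all wild-type MEK libraries, but replicate 2 came close to them. The log2 fold change was -0.58 ± 0.18 SE (95% interval -0.99 to -0.18, edgeR adjusted p = 0.042), and without MEK F53S replicate 2 it was -0.82 (edgeR adjusted p = 0.00376). The call was lost without MEK F53S replicate 1 or 3 (edgeR adjusted p = 0.147 and 0.157). It was also lost without wild-type MEK replicate 2 or 3 (edgeR adjusted p = 0.107 and 0.0869). Further losses came with limma on log2(TPM + 1) (adjusted p = 0.152) and with the listed effective length as offset (edgeR adjusted p = 0.0618).

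CanB2 (FBgn0015614) encodes a regulatory B subunit of calcineurin, and lies on 2R, 7786010 to 7789053, on the plus strand. It had 142, 123 and 122 CPM in MEK F53S eggs, and 104, 117 and 106 CPM in wild-type MEK eggs. The groups did not overlap, but the lowest MEK F53S library and the highest wild-type MEK library were close, and the log2 fold change of 0.24 did not pass the test (95% interval -0.03 to 0.52, edgeR adjusted p = 0.18). With limma on log2(TPM + 1) the difference was 0.46 and was called (adjusted p = 0.0381). The other B subunit gene, CanB, had at most 5 counts in any library, so almost all B subunit reads came from CanB2.

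CanA-14F (FBgn0267912) encodes a catalytic A subunit and lies on X, 16560684 to 16587172, on the minus strand. It had 370.0, 626 and 441 CPM in MEK F53S eggs and 618, 537 and 498 CPM in wild-type MEK eggs. MEK F53S replicate 2 was the highest of all 6 libraries and the other MEK F53S libraries were the lowest. The log2 fold change was -0.20 (95% interval -0.60 to 0.20, edgeR adjusted p = 0.445). Without MEK F53S replicate 2 it was -0.44 and was called (edgeR adjusted p = 0.0445), and with limma on log2(TPM + 1) it was 0.04, the opposite direction.

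Its relative Pp2B-14D encodes another A subunit, and whether reads were split between the 2 genes was not checked. Pp2B-14D had 203 ± 41.02 CPM with MEK F53S and 162 ± 14.2 CPM with wild-type MEK (log2 fold change 0.33, edgeR adjusted p = 0.159), and CanA1, a further A subunit gene, had no count in any library. Added together, CanA-14F and Pp2B-14D had 682 ± 171 CPM with MEK F53S and 713 ± 71.03 CPM with wild-type MEK. The share of that sum from CanA-14F was 69.9, 72.2 and 67.9% in MEK F53S replicates 1 to 3, and 78.7, 75.7 and 77.4% in wild-type MEK replicates 1 to 3. The groups did not overlap in this share, which was not tested.

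sra (FBgn0086370) encodes the fly calcipressin, a regulator of calcineurin that is needed to complete meiosis. It lies on 3R, 16186999 to 16197584, on the plus strand. It had 137, 127 and 137 CPM in MEK F53S eggs and 141, 150.4 and 161 CPM in wild-type MEK eggs. In CPM the groups were apart by a narrow margin, and the log2 fold change of -0.17 did not pass the test (95% interval -0.43 to 0.08, edgeR adjusted p = 0.299). In TPM the groups overlapped, at 107 to 110 with MEK F53S and 105 to 120 with wild-type MEK. With limma on log2(TPM + 1) the difference was -0.02. The ratio of sra to CanB2 counts was 1.04 ± 0.0787 with MEK F53S and 1.39 ± 0.12 with wild-type MEK (SD, n = 3 each), and the groups did not overlap (exact permutation p = 0.1, the smallest possible, or 0.2 adjusted over the 6 ratios). sra shares 301 exonic bases, 12.7% of its exons, with Bin1 on the other strand, a gene at 17.5 ± 4.38 CPM with MEK F53S and 16.0 ± 5.21 CPM with wild-type MEK.

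wisp (FBgn0260780) encodes a cytoplasmic poly(A) polymerase of the GLD-2 family that lengthens the tails of maternal mRNAs, and lies on X, 11893943 to 11899920, on the plus strand. It had 992, 1095.5 and 992 CPM in MEK F53S eggs, and 1009.5, 1095 and 1098 CPM in wild-type MEK eggs, so the ranges overlapped almost fully. Its log2 fold change was -0.06, and its 95% interval of -0.27 to 0.15 was the narrowest of the 10 (edgeR adjusted p = 0.699). With limma on log2(TPM + 1) the difference was 0.06. Its relative Gld2, known for its role in the testis, had at most 35 counts in any library.

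fs(1)Ya (FBgn0000927) encodes YA, a maternal protein of the nuclear lamina that is needed for the first nuclear divisions. It lies on X, 2724286 to 2726577, on the plus strand, with 1 annotated transcript of 2235 bases. It had 96.9, 94.4 and 68.1 CPM in MEK F53S eggs, against 56.2, 31.1 and 22.4 CPM in wild-type MEK eggs. All MEK F53S libraries were above all wild-type MEK libraries, and wild-type MEK replicate 1 was far above the other 2 of its group. The log2 fold change was 1.24 ± 0.30 SE (95% interval 0.57 to 1.91, edgeR adjusted p = 0.0152), and without wild-type MEK replicate 1 it was 1.66 (edgeR adjusted p = 0.000597). The call was lost without MEK F53S replicate 1 or 2 or wild-type MEK replicate 2 (edgeR adjusted p = 0.056, 0.0539 and 0.0577), where the log2 fold change was 1.15, 1.17 and 1.12. It was also lost with limma on log2(TPM + 1) and no filter, where the difference was 1.11 (adjusted p = 0.0845).

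**Figure D3:**
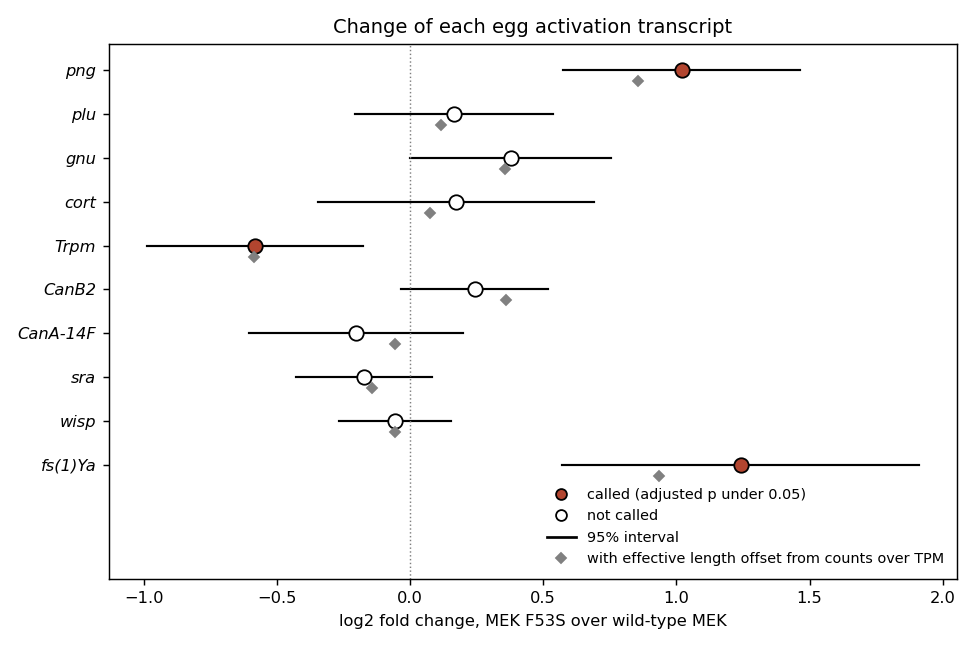
Log2 fold change of MEK F53S over wild-type MEK (x axis) for the 10 genes: circles are edgeR estimates, filled where adjusted p was under 0.05, lines are 95% intervals, and grey diamonds are estimates with an effective length offset taken from counts over TPM. Only the intervals of png, fs(1)Ya, Trpm and, narrowly, gnu leave out 0, and the offset gives 0.86 for png and 0.93 for fs(1)Ya.

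**Figure D4:**
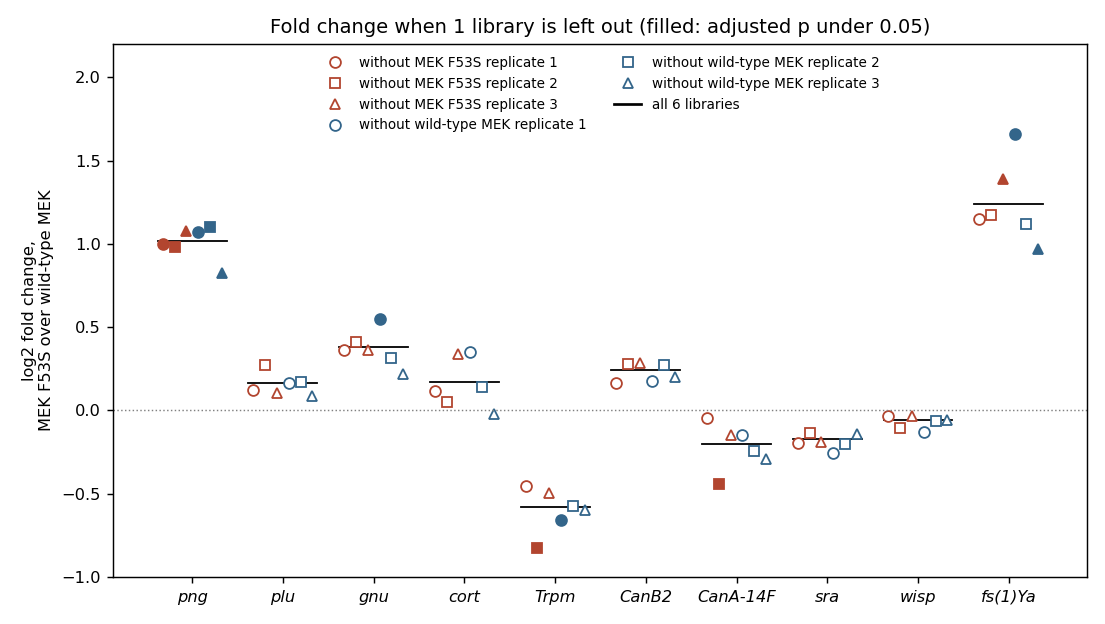
Log2 fold change of MEK F53S over wild-type MEK (y axis) for each gene when 1 of the 6 libraries is left out; red markers leave out a MEK F53S library and blue markers a wild-type MEK library, shapes are replicate numbers, filled markers had adjusted p under 0.05, and the black line uses all 6. png is filled in all 6 fits, fs(1)Ya in 3 and Trpm in 2, and gnu and CanA-14F are each filled in 1.

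Across libraries the genes varied in different ways. Among wild-type MEK libraries, replicate 3 was lowest for 6 of the 10 genes (png, plu, gnu, cort, CanA-14F and fs(1)Ya) and replicate 1 was lowest for the remaining 4 (Trpm, CanB2, sra and wisp). Among MEK F53S libraries, replicate 2 was highest for png, cort, Trpm, CanA-14F and wisp, and lowest for plu, gnu and sra. fs(1)Ya had the largest coefficient of variation with wild-type MEK, 48.03%, and CanA-14F and Trpm the largest with MEK F53S, 27.5% and 27.1%. Replicate numbers are names and have no order.

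Levels of different genes can be compared only per length, as in TPM. wisp was first in both groups, with 515 ± 57.1 TPM in MEK F53S eggs and 491 ± 3.53 TPM in wild-type MEK eggs (SD, n = 3 each). gnu followed with 347 ± 6.24 TPM in MEK F53S eggs and 252 ± 70.7 TPM in wild-type MEK eggs, and then fs(1)Ya with 312 ± 71.8 TPM in MEK F53S eggs and 151 ± 66.8 TPM in wild-type MEK eggs. The libraries of gnu and fs(1)Ya overlapped in both groups, so their order was not resolved. With wild-type MEK fs(1)Ya also overlapped with CanA-14F and sra, so its place above them there was not resolved. In MEK F53S eggs CanA-14F (141 ± 40.0 TPM), png (132 ± 17.7 TPM), sra (109 ± 1.56 TPM) and CanB2 (108 ± 13.4 TPM) came next, and CanA-14F overlapped with each of the other 3. CanB2 also overlapped with png and with sra. In wild-type MEK eggs CanA-14F (135 ± 22.2 TPM), sra (111 ± 8.55 TPM), CanB2 (78.3 ± 5.91 TPM) and png (66.9 ± 16.8 TPM) came in that order, with CanB2 and png overlapping. png thus stood above sra and CanB2 in mean TPM with MEK F53S, and below both with wild-type MEK. Its order against CanB2 was not resolved in either group, whereas png and sra were apart in each. With wild-type MEK png also overlapped with plu and cort. plu, cort and Trpm came last in both groups, with 59.4, 51.7 and 22.6 TPM in MEK F53S eggs and 50.7, 45.3 and 30.9 TPM in wild-type MEK eggs, and plu and cort overlapped in both. The lowest cort library was above the highest Trpm library in each group.

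These ranks depend on the length used. The effective length behind the TPM of fs(1)Ya was 519 ± 24.9 bases with MEK F53S and 370 ± 45.3 bases with wild-type MEK, although its transcript has 2235 bases. For png it was 402 ± 13.7 bases with MEK F53S and 324 ± 32.3 bases with wild-type MEK, against a transcript of 1114 bases. Per kilobase of the longest annotated transcript, fs(1)Ya was seventh of the 10 in both groups, and png eighth with MEK F53S and last with wild-type MEK, while wisp and gnu were still first and second. The effective length was longer with MEK F53S in 8 of the 10 genes without overlap between the groups, near the background of 77.4% of the 7105 genes with a value in every library. Among the 10, the ratio was largest for fs(1)Ya (1.4) and png (1.24). With that length as an offset in edgeR, an alternative chosen after seeing the data, the log2 fold changes were 0.93 for fs(1)Ya (adjusted p = 0.0283) and 0.86 for png (adjusted p = 0.0155), lower than without it and still called. That of Trpm was -0.58 and called (edgeR adjusted p = 0.0316). With the listed effective length as offset, Trpm was at -0.54 and not called (edgeR adjusted p = 0.0618).

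The 10 genes lie on 5 chromosome arms, with 4 on X (png, CanA-14F, wisp and fs(1)Ya), 3 on 2R (plu, Trpm and CanB2) and 1 each on 2L, 3L and 3R. Both called higher, png and fs(1)Ya, are on X, where 10.7% of the 1313 genes tested were called higher.

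The surroundings of these genes were described with 5 lists of other genes of the same processes. Downstream of PNG, 13 genes of translational control were tested, of which 1 was called higher, 3 were called lower and 9 were not called (median log2 fold change 0.05, the same as over all genes to 2 decimals). Higher calls were 7.69% and lower calls 23.1% of the list, against 12.3% and 12.9% of all genes tested. The PNG targets smg, a repressor of maternal mRNA, and CycB, the mitotic cyclin, fell by 0.53 and fell by 0.41 on the log2 scale (edgeR adjusted p = 0.00283 and 0.00426), and the cyclin gene CycA fell by 0.33 (edgeR adjusted p = 0.0244), a call lost without MEK F53S replicate 1 or 3 or wild-type MEK replicate 2 or 3, and with the listed effective length offset (edgeR adjusted p = 0.0628). The posterior determinant nanos was the 1 higher call (log2 fold change 0.67, edgeR adjusted p = 0.0405), and it was lost when MEK F53S replicate 1 or 2, or replicate 2 or 3 of wild-type MEK, was left out. The adaptors and repressors linked to PNG, tral, me31B, BicC and pum, were not called, with log2 fold changes of 0.15, 0.10, 0.05 and -0.34. With limma on log2(TPM + 1) no gene of the list was called lower and 2 were called higher, and with effective length offsets 3 (listed) or 2 (from counts over TPM) were called higher.

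Around cort, 29 genes of the APC and of meiotic completion were tested, of which 2 were called higher, 5 lower and 22 not (median 0.06). That is 6.90% higher and 17.2% lower, against 12.3% and 12.9% of all genes tested. The calls with the smallest p were the spindle gene mei-38, with 74.9 ± 10.7 CPM in MEK F53S eggs and 119.9 ± 4.06 CPM in wild-type MEK eggs (log2 fold change -0.68, edgeR adjusted p = 0.00684), and the meiotic Cdc25 phosphatase gene twe (-0.49, edgeR adjusted p = 0.00687), whose call was lost with the listed effective length as offset (-0.38, edgeR adjusted p = 0.0601). fzy, the Cdc20 gene that works beside cort, fell by 0.46 (edgeR adjusted p = 0.0129), a call lost without MEK F53S replicate 3. alphaTub67C, the maternal alpha tubulin, rose by 0.95 (edgeR adjusted p = 0.0143), with 334 ± 15.7 CPM in MEK F53S eggs and 173 ± 68.0 CPM in wild-type MEK eggs, and was not called when wild-type MEK replicate 2 was left out. grau, the transcription factor known to activate cort, was not called (log2 fold change 0.31, edgeR adjusted p = 0.339), nor was mtrm, a target of cort (-0.28, edgeR adjusted p = 0.211). In this list, higher calls numbered 0 without wild-type MEK replicate 2, 1 without MEK F53S replicate 1 or 3 or wild-type MEK replicate 3, with the effective length offset from counts over TPM or with limma and no filter, and 6 without wild-type MEK replicate 1. Lower calls numbered 2 without MEK F53S replicate 3 or with limma and no filter, and 3 without MEK F53S replicate 1, without replicate 2 or 3 of wild-type MEK, with a replicate block, with the listed effective length offset or with limma on log2(TPM + 1).

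On the calcium side, 13 of 16 genes were tested, and 0 were called higher, 3 lower and 10 not (median -0.24, against 0.05 over all genes). Lower calls were 23.1% of those tested, against 12.9% of all genes, and higher calls 0%, against 12.3%. The kinase gene sgg, whose product GSK-3 phosphorylates Sra, had 273 ± 11.7 CPM in MEK F53S eggs and 454 ± 80.2 CPM in wild-type MEK eggs (log2 fold change -0.74, edgeR adjusted p = 0.00501). The phospholipase C genes Plc21C and sl fell by 0.67 and fell by 0.47 (edgeR adjusted p = 0.00366 and 0.0274), and the call of sl was lost when MEK F53S replicate 1 or 3, or replicate 2 or 3 of wild-type MEK, was left out, and with the listed effective length offset (edgeR adjusted p = 0.0906). The store channel gene Itpr and the pump gene SERCA missed the threshold in opposite directions, at -0.52 and 0.31 (edgeR adjusted p = 0.066 and 0.0656). One gene was called higher without wild-type MEK replicate 1, with upper-quartile factors, with the effective length offset from counts over TPM, and with limma on log2(TPM + 1).

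Around wisp, 14 of 15 polyadenylation genes were tested, with 2 called higher, 2 lower and 10 not (median 0.24). Each direction made up 14.3% of those tested, against 12.3% higher and 12.9% lower over all genes. orb, whose product binds mRNA and recruits polyadenylation factors, rose by 1.37 (edgeR adjusted p = 0.00336), while its relative orb2 fell by 0.89 (edgeR adjusted p = 0.00724). Pabp2, the nuclear poly(A)-binding protein gene, had 137 ± 1.84 CPM in MEK F53S eggs and 83.6 ± 4.9 CPM in wild-type MEK eggs (log2 fold change 0.72, edgeR adjusted p = 0.00237). Cpsf160, a subunit of the cleavage and polyadenylation factor, fell by 0.65 (edgeR adjusted p = 0.00204). All 4 stayed called whichever single library was left out. With DESeq2 4 genes of the list were called higher, and with limma and no filter 1 was called lower.

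Around fs(1)Ya, 19 genes of the nuclear envelope and pronuclei were tested, with 2 called higher, 8 lower and 9 not (median -0.39). Lower calls were 42.1% of this list, against 12.9% of all genes tested, and higher calls 10.5%, against 12.3%. Like the other lists, it was chosen with earlier results of these data known, and these shares were not tested. LamC, the A-type lamin gene, rose by 1.92, with 34.2 ± 2.86 CPM in MEK F53S eggs and 9.07 ± 1.65 CPM in wild-type MEK eggs (edgeR adjusted p = 0.000181). The pore membrane gene Gp210 and the nucleoporin gene Nup153 fell by 0.64 and fell by 0.65 (edgeR adjusted p = 0.00154 and 0.0034), and LBR, the lamin B receptor gene, fell by 0.65 (edgeR adjusted p = 0.004). These 4 stayed called whichever single library was left out. The higher calls of the list numbered 4 with wild-type MEK replicate 1 left out, and 1 with any of MEK F53S replicates 1 and 3 and wild-type MEK replicates 2 and 3 left out. Without MEK F53S replicate 2 and wild-type MEK replicate 1 together, 3554 genes were called, 23.7% of all genes tested higher and 23.2% lower. That pair was chosen after seeing the data, and leaving it out lowers the spread by construction. The PNG list then had 4 higher and 5 lower calls, the APC list 9 of each and the calcium list 1 higher and 8 lower. The polyadenylation list had 6 higher and 3 lower calls, and the envelope list 4 higher and 10 lower.

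**Figure D5:**
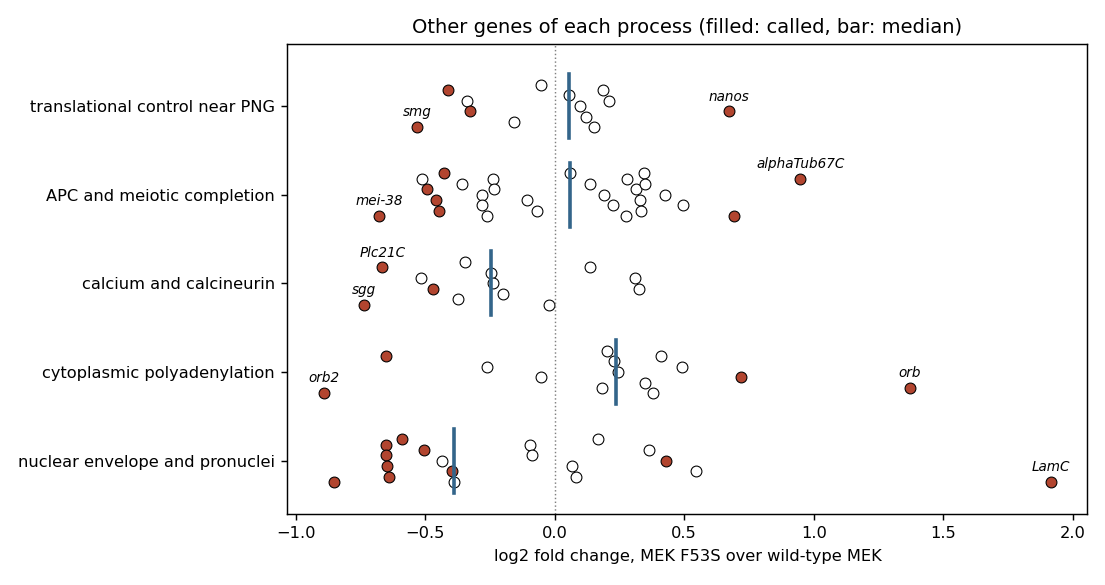
Log2 fold change of MEK F53S over wild-type MEK (x axis) for every tested gene of the 5 lists (rows, points spread vertically for legibility only); filled points had adjusted p under 0.05 with edgeR and the blue bar is the list's median. The envelope list lies furthest left with a median of -0.39, and LamC at 1.92 and orb at 1.37 are furthest right.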

How the data were processed

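The genes and lists were chosen with earlier results of these data known. Genes named from the lists were the called ones with the smallest p, up to 4 per list, and the relatives of calcineurin and wisp genes; grau, mtrm, tral, me31B, BicC, pum, Itpr and SERCA were added after their values were seen. Per the submitters' processing notes, reads were quantified with Salmon 0.8.2 and build dm6; per the labels' protocols, libraries were directional. No source used here gives the annotation, strand setting, bias options or any poly(A) selection. Per the file headers, the deposited tables hold estimated counts, TPM values scaled for length and depth by the authors, and the other columns length and effective length in bases.

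Estimated counts were rounded and filtered with filterByExpr of edgeR 4.0.16 in R 4.3.3 (minimum count 10, minimum total 15), scaled with TMM factors and tested with no covariate. SE come from the F statistic, and 95% intervals use its total degrees of freedom. Fold changes are MEK F53S over wild-type MEK. Alternatives used DESeq2 1.42.0, limma 3.58.1 on log2(TPM + 1), other scalings, other filters, a replicate block and left-out libraries. The edgeR fit was tested on simulated data. Positions come from Ensembl's BDGP6 annotation, which has dm6 coordinates, and symbols were matched for 13831 of 13943 genes. In genes with 1 annotated transcript, counts over TPM gave the listed effective length within 1% in at least 99.8% of cases; with several transcripts they did so in at most 7.38%, and the listed value was 0.5 of it in the median. Effective lengths given here are therefore those from counts over TPM. Intervals cover the spread between these libraries, and the counts are PCR reads, not independent molecules.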

Additional observations from a re-analysis of the deposited data

How the results depend on the processing

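Of 190 results for single genes under alternatives, 163 kept their direction and side of the threshold. cort reversed with the listed effective length as offset (-0.071) and without wild-type MEK replicate 3 (-0.019), and ranged from -0.019 to 0.35 when 1 library was left out. CanA-14F reversed with that offset (0.20) and with limma on log2(TPM + 1) or log2(TPM + 0.1), also with no filter (0.044 in each). wisp reversed in the same 3 limma fits (0.061 in each). The cause was not tested.

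Genes called were 1001 to 2614 when 1 library was left out, 1227 with limma and no filter, and 3554 without MEK F53S replicate 2 and wild-type MEK replicate 1, a pair chosen after seeing the data because each stood apart from its group, so the spread is lower by construction. Of the 10 genes, those called higher numbered 1 to 3 and those called lower 0 to 2 when 1 library was left out, 1 and 0 with limma and no filter, and 3 and 2 without that pair. Lower calls were 0 with the listed effective length offset and in the other limma fits. Higher calls were 48.9% of all calls with TMM factors and 64.7% with limma on log2(TPM + 1).

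Replicate numbers did not pair the libraries (correlation of deviations -0.06, -0.12 and 0.11 for numbers 1 to 3). With a replicate block 1486 genes were called, and the same 2 of the 10 genes higher and 1 lower. Listed gene lengths, which are not transcript lengths where a gene has several, differed between MEK F53S and wild-type MEK with either sign when 1 library was left out, by -33.0 to 221 bases for cort, -223 to 26.6 for Trpm and -59.6 to 3.67 for wisp. With counts per kilobase of that listed length in place of TPM, 9 of the 10 ranks changed in each group. Intervals of the 7 genes not called still allow changes, the widest being that of cort.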
